A study of Mus musculus with 18 samples.

Results

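The coagulation and fibrinolysis genes described here are 32 mouse genes for clotting factors, fibrinogen chains, anticoagulants and components of the plasmin system, taken as the rows whose gene symbol equals a member in both expression tables, 32 of 33235 genes. All 32 members were found in each table. The study profiled bulk liver by RNA-seq after delivery of an antisense oligonucleotide (ASO) against Mdm2, whose product is a ubiquitin ligase that destabilises p53. The oligonucleotides carried GalNAc, a sugar taken up by hepatocytes through the asialoglycoprotein receptor. Mdm2ASO livers, with the genotype given as MDM2 knockdown and the treatment as GalNAc-Mdm2ASO, were compared with conASO livers, labelled WT and given GalNAc-conASO, on each of a pair of diets. One diet is named HFHC with no expansion in the labels, and the other is CDAHFD, the usual abbreviation of a high-fat diet that lacks choline, has its amino acids defined and is given to produce steatohepatitis. The groups held 4 Mdm2ASO and 4 conASO samples on HFHC and 5 Mdm2ASO and 5 conASO samples on CDAHFD. Strain, age, sex, dose and duration of feeding were not given in the labels, and the Mdm2ASO groups are knockdowns by an oligonucleotide, not germline mutants.

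Most circulating clotting factors are made by hepatocytes and secreted as inactive precursors. Tissue factor with factor VII starts the cascade, the contact factors and factors VIII, IX and XI amplify it, and thrombin finally turns fibrinogen into fibrin, which factor XIII cross-links. Antithrombin, the protein C system and tissue factor pathway inhibitor restrain it, and plasmin dissolves the clot. A smaller set of members (F8, Vwf, Thbd, Tfpi, Plat, F13a1, Plaur, Plau and F3) was assigned to endothelial cells, macrophages, platelets or other cells of the liver rather than to hepatocytes. The place of F3 in this set is uncertain, and the cells that make each member were not tested here.

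On HFHC, Mdm2ASO replicates 6 and 7 had the same value in every gene and were counted as 1 library, called 6-7, so that 17 libraries entered the comparisons, 3 Mdm2ASO and 4 conASO on HFHC and 5 and 5 on CDAHFD. The values are normalized read counts, which summed to 17.4 to 20.5 M per library on HFHC and 22.2 to 26.3 M on CDAHFD. The targeted transcript followed the labels: Mdm2 had 420, 362 and 304 normalized counts in Mdm2ASO livers on HFHC, against 907, 954, 963 and 956 in conASO livers, and 861, 566, 646, 564 and 598 in Mdm2ASO livers on CDAHFD, against 1443, 1572, 1516, 1650 and 1644 in conASO livers. Each Mdm2ASO library lay below every conASO library of its diet, with log2 fold changes of -1.39 ± 0.106 SE on HFHC and -1.29 ± 0.110 on CDAHFD (limma adjusted p = 1.1e-05 and 3.1e-05, exact two-sided permutation p = 0.0571 and 0.00794, each the smallest its design allows). Nothing in the labels says that the samples of a group came from separate animals, so p-values measure the spread between these samples. Fold changes, standard errors (SE) and adjusted p-values below come from limma-trend on log2(value + 0.5) over all genes of a table, and a gene is said to have risen or fallen where its Benjamini-Hochberg adjusted p was under 0.05.

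On HFHC, 6 of the 32 members rose in Mdm2ASO livers and 0 fell by limma (2 of the lower ones, F9 and F5, had an unadjusted p under 0.05), 18.8% of the members against 30.6% of all 17441 genes tested (16.8% higher and 13.8% lower). The 6 were F11, Plaur, F13a1, Tfpi, F7 and Vwf. On CDAHFD, 3 members rose (F7, Proc and F11) and 2 fell (Fga and F5), 15.6% of the members against 13% of all 16803 genes (6.12% higher and 6.86% lower). Without Mdm2ASO replicate 6, 7 or 8 or conASO replicate 2 or 4, 3 members were called on CDAHFD, 1 of them lower, and without conASO replicate 1 on HFHC 1 member (F9) was lower. The median log2 fold change of the members was -0.01 on HFHC and -0.15 on CDAHFD, where that of all genes was -0.00613 and -0.00206. Under quantile normalization the members' median on HFHC was 0.205 and that of all genes -0.111, so the members' direction relative to all genes there depends on the scaling. The members' share of calls was thus below the background on HFHC and near it on CDAHFD, and the results lie in single genes.

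The members were also split by the cells taken to make most of each protein, a split from general knowledge in which the place of F3 is uncertain. Of the 23 members assigned to hepatocytes, 2 rose on HFHC (8.70%, beside 30.6% of all genes called and 16.8% higher). Their median log2 fold change there was -0.02. On CDAHFD 3 of them rose and 2 fell (21.7%, beside 13% of all genes called). Of the 9 members assigned to other liver cells, 4 rose on HFHC (44.4%, beside the same 30.6% and 16.8%). Their log2 fold changes there ran from -0.61 to 1.97, with a median of 0.54. On CDAHFD 0 of 9 passed the limma test (beside 13% of all genes), and their median was -0.17. F3 and Plau, 2 of these 9, had an unadjusted p under 0.05 there and passed in DESeq2 (adjusted p = 0.0274 and 0.0355), not in edgeR (0.0716 and 0.0821). In bulk liver a different number of cells of a type cannot be told apart from a different amount of RNA per cell. Markers of other cell types moved on HFHC as well: 11 of 15 endothelial markers rose, with a summed level of 11275 to 12890 normalized counts in Mdm2ASO libraries against 6887 to 7895 in conASO libraries. Monocyte and macrophage markers rose in 6 of 15 genes (20444 to 26319 in Mdm2ASO, 8654 to 14504 in conASO), neutrophil markers in 10 of 10 (2617 to 3691 in Mdm2ASO, 243 to 518 in conASO) and platelet and megakaryocyte markers in 13 of the 13 tested (1620 to 2495 in Mdm2ASO, 451 to 571 in conASO). Gp1bb, a platelet receptor subunit of that list, was at 0 in all conASO libraries on HFHC. Hepatocyte markers passed in 0 of 14 genes on HFHC by limma (1 at an unadjusted p under 0.05), with summed levels of 1783470 to 2471430 in Mdm2ASO and 1627420 to 2016000 in conASO libraries, so the liver label fits both groups. Among them Alb was higher in every Mdm2ASO library than in any conASO library, and Apoa1 and Apoa2 were lower. Their log2 fold changes were 0.52 ± 0.716, -0.37 ± 0.244 and -0.62 ± 0.266 SE. The groups of the other hepatocyte markers overlapped, and those of 38.7% of all genes tested did not. Of the other lists, 7 stellate cell markers rose and 1 fell of 12 on HFHC, 6 of 10 cholangiocyte markers fell, 7 of 7 red blood cell markers rose and 10 of 13 mitochondrially encoded transcripts fell. On CDAHFD, 1 of 12 stellate markers and 1 of 13 mitochondrially encoded transcripts rose, and cholangiocyte and red blood cell markers passed in 0 of 10 and 0 of 6 genes by limma, edgeR and DESeq2 (5 and 1 at an unadjusted p under 0.05 by limma). The part of these marker levels in the members' results was not tested.

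**Figure D1:**
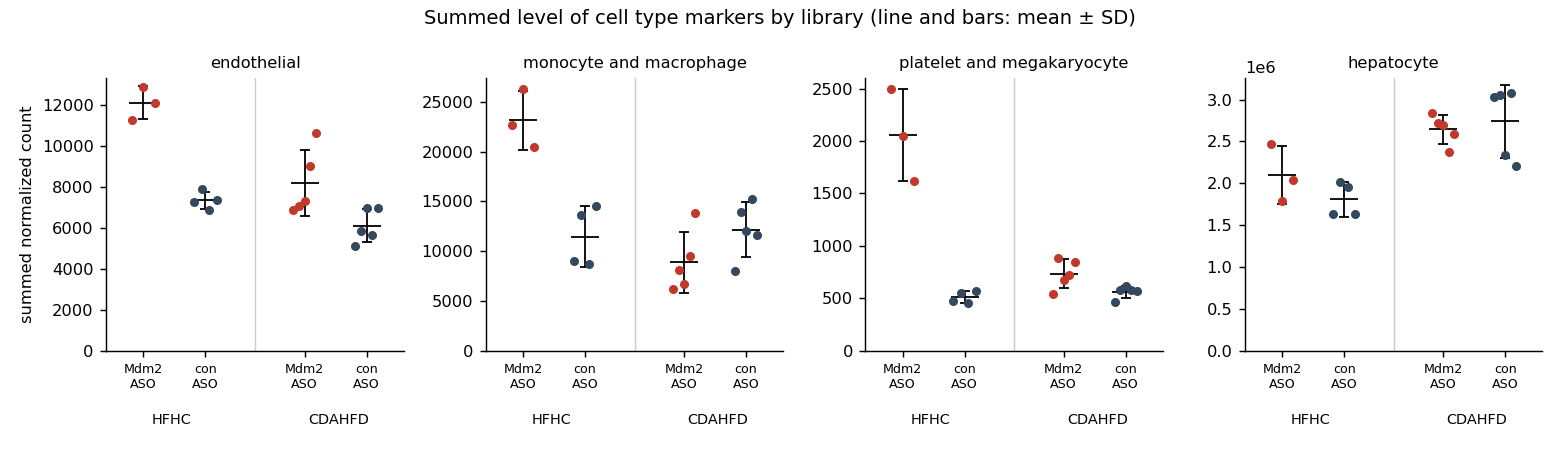
Summed normalized counts of endothelial, monocyte and macrophage, platelet and hepatocyte markers per library; points are libraries and bars the mean ± SD, with Mdm2ASO left of conASO within each diet. On HFHC the sums other than the hepatocyte one are higher in all 3 Mdm2ASO than in all 4 conASO libraries, and on CDAHFD they overlap between the groups.

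**Figure D2:**
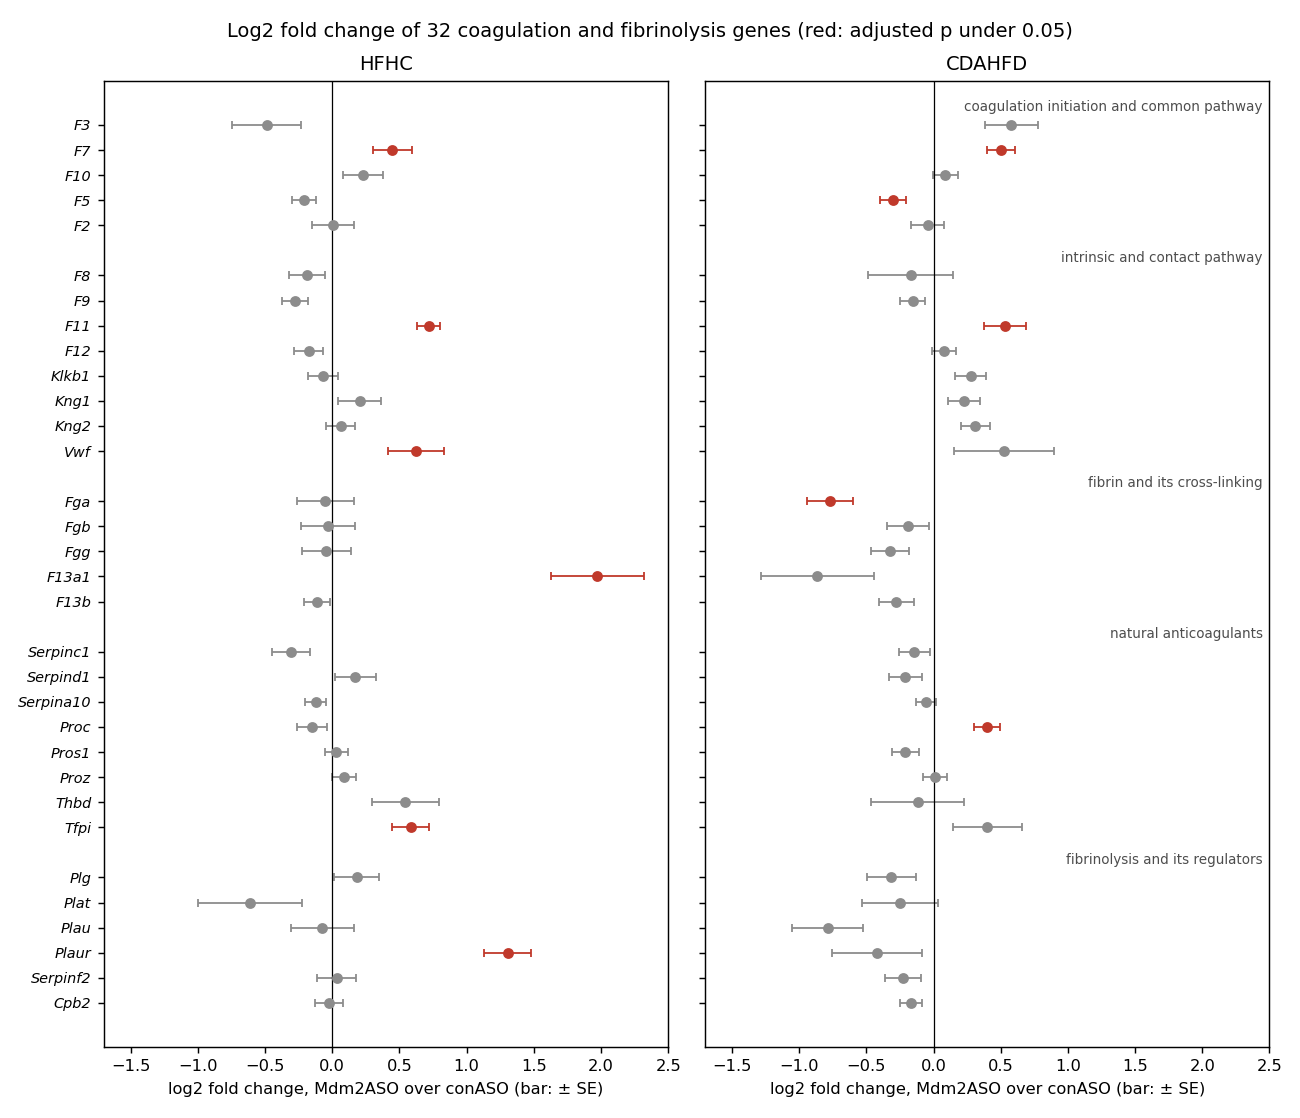
Log2 fold change (Mdm2ASO over conASO) of the 32 members on HFHC and on CDAHFD, grouped by role; bars are ± SE and red points passed the test at an adjusted p under 0.05. Most members lie near 0 on both diets, with F11 and F7 to the right on both, F13a1 and Plaur far to the right on HFHC, and Fga to the left on CDAHFD.

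The factors that start the cascade and form its common pathway are tissue factor (F3), factor VII (F7), factor X (F10), factor V (F5) and prothrombin (F2). F7, the protease that binds tissue factor, rose on both diets. It had 2103, 1623 and 1852 normalized counts in Mdm2ASO livers on HFHC, against 1127, 1702, 1442 and 1222 in conASO livers. The groups overlapped, since conASO replicate 2 lay above Mdm2ASO replicate 9, and the difference was 1.36-fold (log2 0.45 ± 0.144 SE, limma adjusted p = 0.0420). That call was lost without Mdm2ASO replicate 6-7 or 10 or conASO replicate 1, 4 or 5, with adjusted p-values of 0.0685 to 0.124 and log2 fold changes of 0.35 to 0.48. On CDAHFD, F7 had 2941, 2658, 2783, 2171 and 2233 normalized counts in Mdm2ASO livers, against 2023, 1773, 1471, 1895 and 1854 in conASO livers. All 5 Mdm2ASO libraries lay above all 5 conASO libraries here, a 1.42-fold difference (log2 0.50 ± 0.107 SE, limma adjusted p = 0.00842).

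F5, the cofactor of factor Xa, fell in Mdm2ASO livers on CDAHFD. Its values were 6990, 7106, 7771, 8570 and 7223 normalized counts in Mdm2ASO livers and 9413, 10152, 8244, 10445 and 8289 in conASO livers. The groups overlapped through Mdm2ASO replicate 9 (log2 -0.30 ± 0.0945 SE, limma adjusted p = 0.0488). This call was lost in edgeR on recovered reads (adjusted p = 0.0540), with no filter on low values (0.0637), and without any of Mdm2ASO replicates 6, 7, 8 and 10 or conASO replicates 1, 2 and 4 (0.0799 to 0.128). On HFHC, F5 had 8321, 7541 and 8106 normalized counts in Mdm2ASO livers and 9031, 10075, 8996 and 8924 in conASO livers. The groups did not overlap, and the test was not passed (log2 -0.21 ± 0.0877 SE, limma adjusted p = 0.0986).

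F3, the gene of tissue factor, passed in limma on neither diet, but its change differed between them. It had 62.0, 61.5 and 59.6 normalized counts in Mdm2ASO livers on HFHC, against 127, 60.6, 66.9 and 105 in conASO livers. On CDAHFD it had 110, 166, 107, 147 and 131 in Mdm2ASO livers, against 69.7, 99.9, 114, 64.4 and 98.1 in conASO livers. The log2 fold change was -0.49 ± 0.258 SE on HFHC (limma adjusted p = 0.187) and 0.58 ± 0.197 on CDAHFD (0.0681), with groups that overlapped on both. On HFHC it was -0.30 without conASO replicate 1 and -0.78 under quantile normalization, where it passed (adjusted p = 0.0231). On CDAHFD it passed in DESeq2 (adjusted p = 0.0274) and without conASO replicate 3 (0.0416). F10 and F2, the precursors of factor Xa and thrombin, did not pass on either diet, with log2 fold changes of 0.23 and 0.01 on HFHC and 0.09 and -0.04 on CDAHFD. The approximate 95% interval of the F2 log2 fold change ran from -0.30 to 0.31 on HFHC and from -0.28 to 0.19 on CDAHFD. It was taken from a normal distribution and is too narrow for groups this small.

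**Figure D3:**
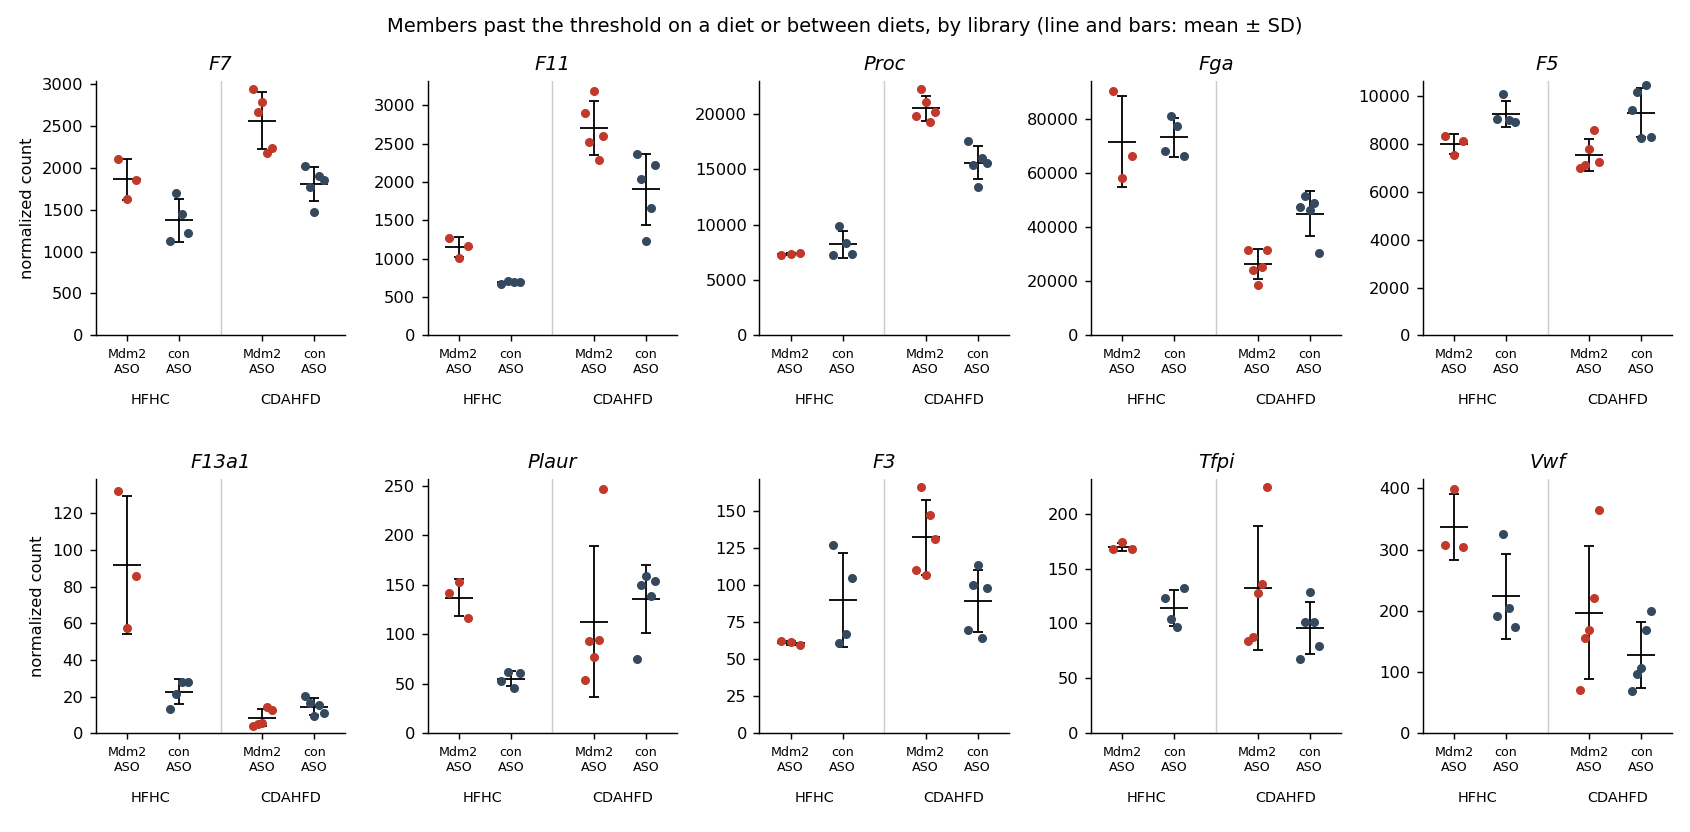
Normalized counts per library of the 10 members that passed a test on a diet or in the difference between diets; points are libraries and bars the group mean ± SD, with Mdm2ASO left of conASO within each diet. F11, Plaur, F13a1, Tfpi and F5 on HFHC and F7 and Proc on CDAHFD show groups that do not overlap, and Plaur on CDAHFD has 1 Mdm2ASO library, replicate 10, at 247 above all others of its group.

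F7 is followed on chromosome 8 by F10 and Proz, its neighbours in the genome, and F11 by Klkb1 on the same chromosome, so that each riser could be set against an adjacent hepatocyte gene within the same library. The ratios below were chosen after the values had been seen, and their p-values do not allow for that choice. The F7 and F11 ratios hold genes that were already called, so they are not separate results. F7 over F10 was 0.286 ± 0.0162 in Mdm2ASO livers on HFHC (SD, n = 3) and 0.245 ± 0.00747 in conASO livers (n = 4), and the groups did not overlap (exact two-sided permutation p = 0.0571, the smallest this design allows, 0.0914 adjusted over 8 ratio tests). On CDAHFD it was 0.311 ± 0.0313 in Mdm2ASO livers and 0.234 ± 0.0247 in conASO livers (SD, n = 5 each), again with no overlap (log2 difference 0.41, exact two-sided permutation p = 0.00794, adjusted 0.0212). The nearest values there were 0.2696 in Mdm2ASO replicate 10 and 0.268 in conASO replicate 5. The 200 bases before the F7 and F11 starts are shown because these were the members that rose on both diets. They come from RefSeq on GRCm38.p6, an older build than the GRCm39 used for the deposited values, and are at chr8:13025834-13026033 on the plus strand and chr8:45262032-45262231 on the minus strand. Capitals mark matches to the C/EBP motif TTGCNNAA on either strand.
F7: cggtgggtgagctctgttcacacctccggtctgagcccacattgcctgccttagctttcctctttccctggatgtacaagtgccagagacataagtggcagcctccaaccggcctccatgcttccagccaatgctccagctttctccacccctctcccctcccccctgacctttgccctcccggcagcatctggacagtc
F11: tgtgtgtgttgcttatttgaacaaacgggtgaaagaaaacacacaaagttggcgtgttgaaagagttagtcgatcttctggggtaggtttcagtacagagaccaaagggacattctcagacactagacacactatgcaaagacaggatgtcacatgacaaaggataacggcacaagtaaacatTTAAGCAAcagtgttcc
F11 held 1 match, 17 to 10 bases before the start, and F7 held 0. The C/EBP motif was found in 7 of the 24 members with a promoter in the table (F11, F9, Fga, Fgb, Klkb1, Kng2 and Plaur) and in 7.47% of all 32851 promoters. The STAT motif TTCNNNGAA was found in 3 members (F9, Fgb and Pros1, 5.49% of all promoters) and the p53 decamer motif by name in 3 (F12, F13b and F5, 5.59%). The HNF4 motif CAAAGTCC (0.956% of all promoters) and the myeloid PU.1 motif GAGGAAGT (2.06%) were found in 0 members within this window. A match or its absence describes these letters alone.

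The contact and intrinsic members are factor XII (F12), prekallikrein (Klkb1), the kininogens (Kng1 and Kng2), factors XI, IX and VIII (F11, F9 and F8) and von Willebrand factor (Vwf), the carrier of factor VIII. F11, the protease that activates factor IX, rose on both diets. It had 1271, 1008 and 1165 normalized counts in Mdm2ASO livers on HFHC, against 671, 711, 698 and 703 in conASO livers. Every Mdm2ASO library lay well above the narrow range of the conASO libraries, a 1.64-fold difference (log2 0.72 ± 0.0871 SE, limma adjusted p = 0.000243). On CDAHFD, F11 had 2899, 2519, 3189, 2291 and 2600 normalized counts in Mdm2ASO livers, against 2368, 2039, 1235, 1656 and 2226 in conASO livers. The groups overlapped through Mdm2ASO replicate 9 and conASO replicate 1 (1.45-fold, log2 0.53 ± 0.155 SE, limma adjusted p = 0.0361). Without Mdm2ASO replicate 6, 7 or 8 or conASO replicate 2 or 4 the adjusted p was 0.0583 to 0.0931, and the log2 fold change lay between 0.47 and 0.57.

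Klkb1, the gene of prekallikrein and a paralogue of F11 next to it, did not pass on either diet. Its log2 fold change was -0.07 ± 0.113 SE on HFHC (limma adjusted p = 0.679) and 0.28 ± 0.115 on CDAHFD (0.126). The ratio of F11 to Klkb1 within a library was 0.532 ± 0.0921 in Mdm2ASO livers on HFHC (SD, n = 3) and 0.307 ± 0.0370 in conASO livers (n = 4), with no overlap (log2 difference 0.79, exact two-sided permutation p = 0.0571, adjusted 0.0914). On CDAHFD the ratio was 0.557 ± 0.108 in Mdm2ASO and 0.466 ± 0.0766 in conASO livers (SD, n = 5 each), and the groups overlapped (exact two-sided permutation p = 0.175, adjusted 0.233). Klkb1 shares 2267 exonic bases on the same strand with the gene model Gm45753, so its reads may be split between them.

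Vwf rose on HFHC, with 307, 399 and 304 normalized counts in Mdm2ASO livers, against 191, 326, 204 and 174 in conASO livers. The groups overlapped through conASO replicate 2 (1.54-fold, log2 0.62 ± 0.207 SE, limma adjusted p = 0.0465). The call was lost under quantile normalization (adjusted p = 0.0969) and without any of Mdm2ASO replicates 6-7, 9 and 10 or conASO replicates 1, 4 and 5 (0.0628 to 0.179). Vwf is made by endothelial cells and megakaryocytes, and the summed endothelial and platelet markers given above were higher in each Mdm2ASO library than in any conASO library on HFHC. A link between Vwf and these sums was not tested. On CDAHFD, Vwf had 71.2 to 365 normalized counts in Mdm2ASO livers, highest in replicate 10, and 69.7 to 200 in conASO livers (log2 0.53 ± 0.371 SE, limma adjusted p = 0.381).

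The other intrinsic members passed in limma on neither diet. F9, the vitamin K-dependent protease deficient in haemophilia B, had 2687, 2485 and 2598 normalized counts in Mdm2ASO livers on HFHC, against 2797, 3636, 3256 and 2944 in conASO livers. The groups did not overlap, and the adjusted p was just above the threshold (log2 -0.28 ± 0.0971 SE, limma adjusted p = 0.0550). F9 passed with a minimum value of 10 (adjusted p = 0.0486), without conASO replicate 1 (0.0316) and with the identical columns kept (0.0307). F8, the cofactor made by liver endothelium, had a log2 fold change of -0.18 on HFHC and -0.17 on CDAHFD (limma adjusted p = 0.332 and 0.768), and under quantile normalization it was -0.40 on HFHC and passed (0.0417). For F12, Kng1 and Kng2 the log2 fold changes were -0.17, 0.20 and 0.06 on HFHC and 0.08, 0.23 and 0.31 on CDAHFD. Kng2 on CDAHFD passed in DESeq2 (log2 0.33, adjusted p = 0.0307) and in limma without Mdm2ASO replicate 10 (0.39, 0.0179). Kng1 and Kng2 are near-identical copies, so the division of reads between them is uncertain. Their sum had a log2 fold change of 0.18 on HFHC and 0.24 on CDAHFD (limma adjusted p = 0.447 and 0.213).

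The fibrin-forming members are the 3 fibrinogen chains (Fga, Fgb and Fgg), whose products assemble into 1 hexamer, and the factor XIII subunits (F13a1 and F13b) that cross-link fibrin. On CDAHFD the alpha chain gene Fga fell in Mdm2ASO livers. It had 31634, 24276, 18725, 25464 and 31699 normalized counts in Mdm2ASO livers, against 47463, 51458, 46299, 48846 and 30409 in conASO livers. The groups would be separate but for conASO replicate 5, at 30409, and Fga stood at 58.6% of the conASO level (log2 -0.77 ± 0.173 SE, limma adjusted p = 0.0108). The call held in every alternative run, including the one without that library.

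The beta and gamma chain genes, which sit beside Fga on chromosome 3, passed on neither diet. On CDAHFD, Fgb had 50804, 42247, 39455, 37093 and 62889 normalized counts in Mdm2ASO livers, against 56711, 58402, 49740, 55340 and 42091 in conASO livers (log2 -0.19 ± 0.158 SE, limma adjusted p = 0.467). Fgg had 36220, 31704, 26208, 27512 and 38496 in Mdm2ASO livers, against 45817, 43449, 35952, 42004 and 32330 in conASO livers (log2 -0.32 ± 0.141 SE, limma adjusted p = 0.149). Both genes had their lowest conASO value in replicate 5, as Fga did, and overlapping groups. Fgg shares 115 exonic bases on the opposite strand with the gene model Gm30097.

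The proportion of the chains within a library differed between the groups on CDAHFD. Both ratios below share Fga, which was already called, and were chosen after the values had been seen. Their p-values do not allow for that choice, and they are not separate results. Fga over Fgb was 0.572 ± 0.0863 in Mdm2ASO livers and 0.851 ± 0.0791 in conASO livers (SD, n = 5 each). All 5 Mdm2ASO ratios lay below all 5 conASO ratios, replicate 5 included (log2 difference -0.58, exact two-sided permutation p = 0.00794, adjusted 0.0212 over 8 ratio tests). Fga over Fgg was 0.821 ± 0.0838 in Mdm2ASO and 1.12 ± 0.135 in conASO livers, also with no overlap (log2 difference -0.45, exact two-sided permutation p = 0.00794, adjusted 0.0212). On HFHC both ratios overlapped: Fga over Fgb was 1.03 ± 0.0543 in Mdm2ASO (SD, n = 3) and 1.04 ± 0.0406 in conASO livers (n = 4, exact two-sided permutation p = 0.686), and Fga over Fgg was 1.45 ± 0.0722 in Mdm2ASO and 1.46 ± 0.0206 in conASO livers (exact permutation p = 0.857).

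**Figure D4:**
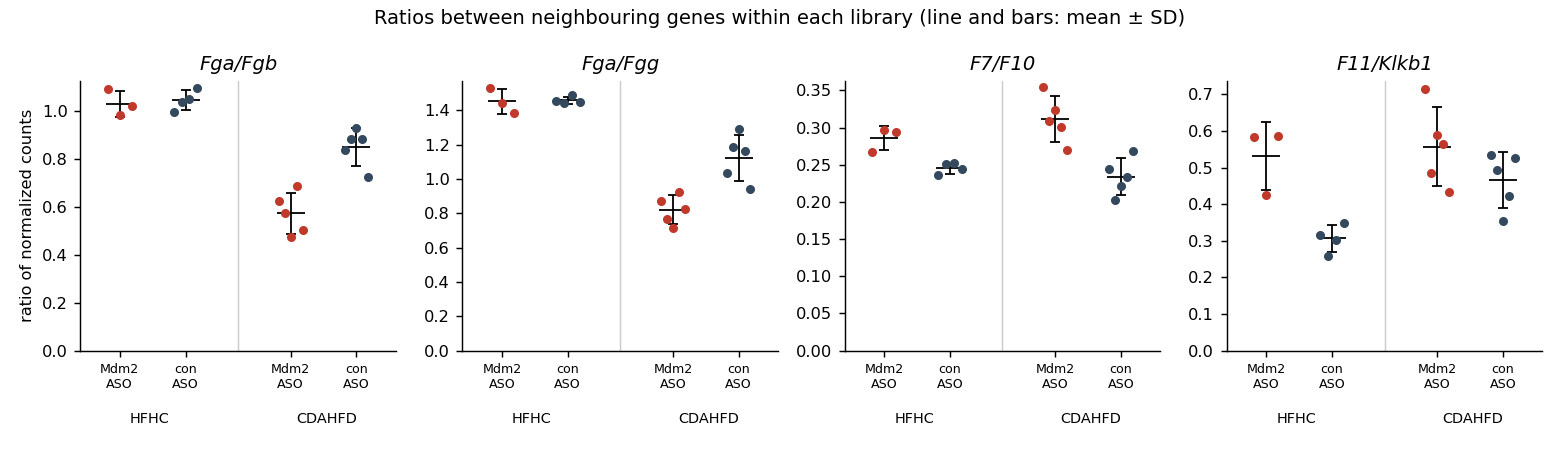
Ratio of normalized counts of neighbouring member genes within each library; points are libraries and bars are the mean ± SD, with Mdm2ASO left of conASO within each diet. Fga/Fgb and Fga/Fgg are lower in all 5 Mdm2ASO than in all 5 conASO libraries on CDAHFD and overlap on HFHC, F7/F10 is higher in all Mdm2ASO libraries on both diets, and F11/Klkb1 on HFHC.

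The fibrinogen promoters are shown because the 3 genes form 1 cluster and Fga moved away from Fgb and Fgg on CDAHFD. The 200 bases before each start, from RefSeq on GRCm38.p6, lie at chr3:83025953-83026152 (Fga, plus strand), chr3:83049864-83050063 (Fgb, minus strand) and chr3:83007524-83007723 (Fgg, plus strand). Capitals mark the C/EBP motif TTGCNNAA on either strand and the STAT motif TTCNNNGAA, which is its own reverse complement.
Fga: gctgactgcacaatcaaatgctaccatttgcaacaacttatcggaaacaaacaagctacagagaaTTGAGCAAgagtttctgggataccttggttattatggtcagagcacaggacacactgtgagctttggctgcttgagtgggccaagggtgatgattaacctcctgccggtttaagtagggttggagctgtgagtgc
Fgb: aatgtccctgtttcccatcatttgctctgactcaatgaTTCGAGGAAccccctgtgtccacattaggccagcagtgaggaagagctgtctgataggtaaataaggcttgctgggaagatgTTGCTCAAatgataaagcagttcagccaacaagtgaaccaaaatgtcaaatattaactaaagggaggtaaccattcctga
Fgg: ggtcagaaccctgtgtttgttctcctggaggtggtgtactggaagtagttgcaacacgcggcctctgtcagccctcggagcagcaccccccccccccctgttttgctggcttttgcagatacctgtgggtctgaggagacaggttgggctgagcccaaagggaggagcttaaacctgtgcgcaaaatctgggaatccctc
Fga held 1 C/EBP match, 135 to 128 bases before the start. Fgb held 1 C/EBP match, 80 to 73 bases before the start, and 1 STAT match, 162 to 154 bases before it. Fgg held 0 matches to either motif.

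On HFHC the fibrinogen genes did not pass. Fga had 90410, 58302 and 66224 normalized counts in Mdm2ASO livers, against 67998, 81158, 77389 and 66146 in conASO livers. Mdm2ASO replicate 6-7 was the highest and replicate 9 the lowest of all libraries. The log2 fold change was -0.05, with an approximate 95% interval of -0.47 to 0.37 from a normal distribution, which is too narrow here. Under quantile normalization the log2 fold change was 0.24. The fibrinogen genes took 0.904 to 1.34% of all normalized counts in Mdm2ASO libraries on HFHC and 0.932 to 1.05% in conASO libraries, and 0.333 to 0.522% in Mdm2ASO libraries on CDAHFD and 0.452 to 0.608% in conASO libraries. All 32 members together took 2.02 to 2.71% in Mdm2ASO and 2.01 to 2.27% in conASO libraries on HFHC, and 1.38 to 1.60% in Mdm2ASO and 1.45 to 1.73% in conASO libraries on CDAHFD.

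F13a1, the catalytic subunit of factor XIII made by macrophages and megakaryocytes, had the largest log2 fold change among the members on HFHC. It had 132, 57.7 and 85.9 normalized counts in Mdm2ASO livers, against 13.4, 21.3, 28.0 and 28.0 in conASO livers. The lowest Mdm2ASO library lay above the highest conASO library, a 3.92-fold difference (log2 1.97 ± 0.346 SE, limma adjusted p = 0.00232). On CDAHFD it had 4.19, 5.23, 5.67, 14.4 and 12.4 in Mdm2ASO livers, against 20.4, 16.6, 9.17, 15.3 and 11.2 in conASO livers. Mdm2ASO replicates 6, 7 and 8 lay below all conASO libraries, but the test was not passed (log2 -0.87 ± 0.421 SE, limma adjusted p = 0.195). On HFHC the summed monocyte, macrophage and platelet markers were higher in every Mdm2ASO library than in any conASO library. On CDAHFD the monocyte and macrophage sums were 6175 to 13871 in Mdm2ASO and 8029 to 15218 in conASO libraries. There 1 of 15 of those markers fell (6.67%), near the 6.86% of all genes that were lower. Neutrophil markers passed in 0 of 9 genes tested on CDAHFD by limma, edgeR and DESeq2 (0 at an unadjusted p under 0.05). Platelet markers rose in 3 of 11 (27.3%, beside 6.12% of all genes higher), with sums of 541 to 883 in Mdm2ASO and 466 to 612 in conASO libraries. The part of these marker levels in the F13a1 result was not tested. F13b, the carrier subunit made by hepatocytes, had log2 fold changes of -0.11 on HFHC and -0.28 on CDAHFD and did not pass, except without conASO replicate 3 on CDAHFD (-0.38, adjusted p = 0.0441).

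The anticoagulant members are antithrombin (Serpinc1), heparin cofactor II (Serpind1), the protein Z-dependent inhibitor (Serpina10) with protein Z (Proz), proteins C and S (Proc and Pros1), thrombomodulin (Thbd) and tissue factor pathway inhibitor (Tfpi). Proc, the vitamin K-dependent protease that inactivates factors Va and VIIIa, rose on CDAHFD. It had 19804, 22183, 21023, 19229 and 20129 normalized counts in Mdm2ASO livers, against 17564, 15364, 13378, 16036 and 15571 in conASO livers. All Mdm2ASO libraries lay above all conASO libraries (1.32-fold, log2 0.40 ± 0.0940 SE, limma adjusted p = 0.0142). On HFHC, Proc had 7225, 7338 and 7450 in Mdm2ASO livers, against 7271, 9830, 8352 and 7363 in conASO livers, and the groups overlapped (log2 -0.15 ± 0.114 SE, limma adjusted p = 0.358).

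Tfpi, the endothelial inhibitor of the tissue factor and factor VIIa complex, rose on HFHC. It had 168, 174 and 168 normalized counts in Mdm2ASO livers, against 123, 104, 97.1 and 132 in conASO livers. The groups did not overlap (log2 0.58 ± 0.137 SE, limma adjusted p = 0.0109, log2 0.36 under quantile normalization). The endothelial marker sums given above were separate as well, as were the groups of 38.7% of all genes tested on HFHC. A link between Tfpi and these sums was not tested. On CDAHFD, Tfpi had 83.8, 87.9, 128, 136 and 224 in Mdm2ASO livers, against 67.6, 102, 128, 102 and 79.5 in conASO livers, with overlapping groups (log2 0.40 ± 0.259 SE, limma adjusted p = 0.336). Mdm2ASO replicate 10 was highest for Tfpi, Vwf and Plaur on CDAHFD, and it also had the highest endothelial marker sum of that group. These sums were 6855 to 10621 in Mdm2ASO and 5122 to 6957 in conASO libraries. Of the 15 markers 3 rose (20%, beside 6.12% of all genes higher).

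The other 6 anticoagulants passed in limma on neither diet. Serpinc1, the main plasma inhibitor of thrombin, had 29183, 24496 and 26424 normalized counts in Mdm2ASO livers on HFHC, against 29522, 37985, 34705 and 30261 in conASO livers. The groups did not overlap, although the nearest values differed by little (log2 -0.31 ± 0.144 SE, limma adjusted p = 0.139). Serpinc1 shares 2942 exonic bases on the opposite strand with Zbtb37. Thbd, the endothelial receptor that turns thrombin towards protein C, had a log2 fold change of 0.54 ± 0.249 SE on HFHC (limma adjusted p = 0.131) and -0.12 ± 0.343 on CDAHFD (0.857), and without conASO replicate 2 it passed on HFHC (0.73, adjusted p = 0.0357). Serpind1, Serpina10, Pros1 and Proz had log2 fold changes of 0.17, -0.12, 0.03 and 0.09 on HFHC and -0.21, -0.06, -0.21 and 0.01 on CDAHFD.

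The plasmin system comprises plasminogen (Plg), its activators (Plat and Plau), the urokinase receptor (Plaur), and the inhibitors alpha 2-antiplasmin (Serpinf2) and the carboxypeptidase TAFI (Cpb2). Plaur, which holds urokinase at the surface of myeloid and other cells, rose on HFHC. It had 142, 153 and 116 normalized counts in Mdm2ASO livers, against 52.6, 61.7, 45.3 and 61.0 in conASO livers. Each Mdm2ASO library lay above every conASO library (2.47-fold, log2 1.31 ± 0.174 SE, limma adjusted p = 0.000441), as did each library's summed neutrophil, monocyte and macrophage markers. A link between Plaur and these sums was not tested. On CDAHFD, Plaur had 53.4, 93.2, 77.1, 93.8 and 247 in Mdm2ASO livers, against 75.1, 150, 159, 139 and 154 in conASO livers. Mdm2ASO replicate 10 stood above all others. The remaining Mdm2ASO libraries lay below conASO replicates 2, 3, 4 and 5, and of these only Mdm2ASO replicate 6 lay below conASO replicate 1 too. The test was not passed (log2 -0.42 ± 0.336 SE, limma adjusted p = 0.452). The log2 fold change was -0.75 without Mdm2ASO replicate 10 (adjusted p = 0.0618), -0.20 without Mdm2ASO replicate 6, -0.27 in edgeR and -0.26 in DESeq2.

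The other 5 members of the plasmin system passed in limma on neither diet. Plg had 48222, 38969 and 45085 normalized counts in Mdm2ASO livers on HFHC, against 33900, 46286, 40262 and 35491 in conASO livers, and on CDAHFD 22479, 20369, 17134, 19038 and 15497 in Mdm2ASO livers, against 26748, 30897, 16489, 29604 and 17105 in conASO livers. Its groups overlapped on both diets (log2 0.18 ± 0.166 SE on HFHC and -0.32 ± 0.182 on CDAHFD, limma adjusted p = 0.445 and 0.276). Under quantile normalization Plg passed on HFHC (log2 0.43, adjusted p = 0.0289) and in the difference between diets (-0.80, adjusted p = 0.00956). Plau, the gene of urokinase, had a log2 fold change of -0.07 on HFHC and -0.79 ± 0.265 SE on CDAHFD (limma adjusted p = 0.841 and 0.0656). On CDAHFD Plau passed under quantile normalization (adjusted p = 0.0374), in DESeq2 (0.0355) and without Mdm2ASO replicate 10 (0.0165) or conASO replicate 1 (0.0390). For Plat, tissue-type plasminogen activator, it was -0.61 on HFHC and -0.25 on CDAHFD, for Serpinf2 0.03 and -0.23, and for Cpb2 -0.02 and -0.17.

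Over all roles, the groups did not overlap for 7 members on HFHC (F5, F9, F11, F13a1, Serpinc1, Tfpi and Plaur), 21.9% against 38.7% of all genes tested, and for 2 on CDAHFD (F7 and Proc), 6.25% against 10.6%. The 26 members that did not pass on HFHC had log2 fold changes of -0.61 to 0.54 with adjusted p-values of 0.0550 to 0.982, and the 27 on CDAHFD -0.87 to 0.58 with 0.0656 to 0.945 by limma.

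The change under Mdm2ASO was then compared between diets, as the effect on CDAHFD minus the effect on HFHC, for the 16333 genes tested in both tables. It passed for 4 members, 12.5% against 23.5% of all genes, 2 higher (9.83% of all genes) and 2 lower (13.6%). F13a1 differed most, by -2.84 ± 0.570 SE on the log2 scale (limma adjusted p = 0.00132), with a log2 fold change of -0.87 on CDAHFD and 1.97 on HFHC. Plaur differed by -1.72 ± 0.469 (limma adjusted p = 0.0120), at -0.42 on CDAHFD and 1.31 on HFHC. Proc differed by 0.55 ± 0.144 (limma adjusted p = 0.00953, or by 0.35 under quantile normalization), at 0.40 on CDAHFD and -0.15 on HFHC.

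F3 differed by 1.07 ± 0.331 SE (limma adjusted p = 0.0255), a call lost without Mdm2ASO replicate 9 or 10 or conASO replicate 1 or 5 on HFHC (0.0507 to 0.0566, with differences of 0.88 to 1.07). Fga, called on CDAHFD alone, did not differ between diets beyond the threshold (-0.72 ± 0.273, limma adjusted p = 0.0641). Its difference passed under quantile normalization (-0.99, adjusted p = 0.00482), and without Mdm2ASO replicate 9 on HFHC (-0.86, 0.0490), Mdm2ASO replicate 10 on CDAHFD (-0.79, 0.0458) or conASO replicate 5 on CDAHFD (-0.86, 0.0190). F7 and F11, which rose on both diets, had differences of 0.05 ± 0.187 and -0.18 ± 0.217 (limma adjusted p = 0.873 and 0.592). A p that misses the threshold does not show that their effects were alike.

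The members differed widely in level within a liver. Levels are compared between genes as normalized counts per kilobase of exon, averaged over the libraries of a group, and within a diet, since the tables of the diets were normalized separately. Exon length is the union of all annotated exons of a gene, so the ranks depend on the annotation. In conASO livers on CDAHFD, Serpinc1 averaged 42194 normalized counts over 8546 bases (rank 10), and Fgg 39911 over 2093 bases (rank 1). Fga was highest on HFHC, at 23803 ± 5557 in Mdm2ASO (SD, n = 3) and 24310 ± 2409 in conASO livers (n = 4), within its spread of Fgg at 23471 ± 4489 in Mdm2ASO and 23974 ± 2351 in conASO livers. On CDAHFD Fgg was first, at 15302 ± 2548 in Mdm2ASO and 19069 ± 2670 in conASO livers (SD, n = 5 each). Kng1 was second in Mdm2ASO livers at 15143 ± 1075, within the spread of Fgg, whereas Fga was second in conASO livers at 14915 ± 2765.

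In each of the 4 groups the 23 members assigned to hepatocytes held ranks 1 to 23 and the 9 assigned to other cells the last 9 ranks. The lowest hepatocyte member was Pros1 in Mdm2ASO livers on HFHC at 398 ± 22.3, and F11 in conASO livers at 310 ± 7.68. On CDAHFD the lowest was Pros1 in both groups, at 390 ± 39.2 in Mdm2ASO and 453 ± 58.6 in conASO livers. The highest of the other 9 was Plaur at 52.4 ± 7.24 in Mdm2ASO livers on HFHC, Plau at 37.9 ± 5.94 in conASO livers on HFHC, F3 at 52.4 ± 10.0 in Mdm2ASO livers on CDAHFD and Plau at 58.8 ± 12.3 in conASO livers on CDAHFD. F11 and the fibrinogen genes thus lay far apart in level, and the members that rose most on HFHC, F13a1 and Plaur, were among the low ones.

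**Figure D5:**
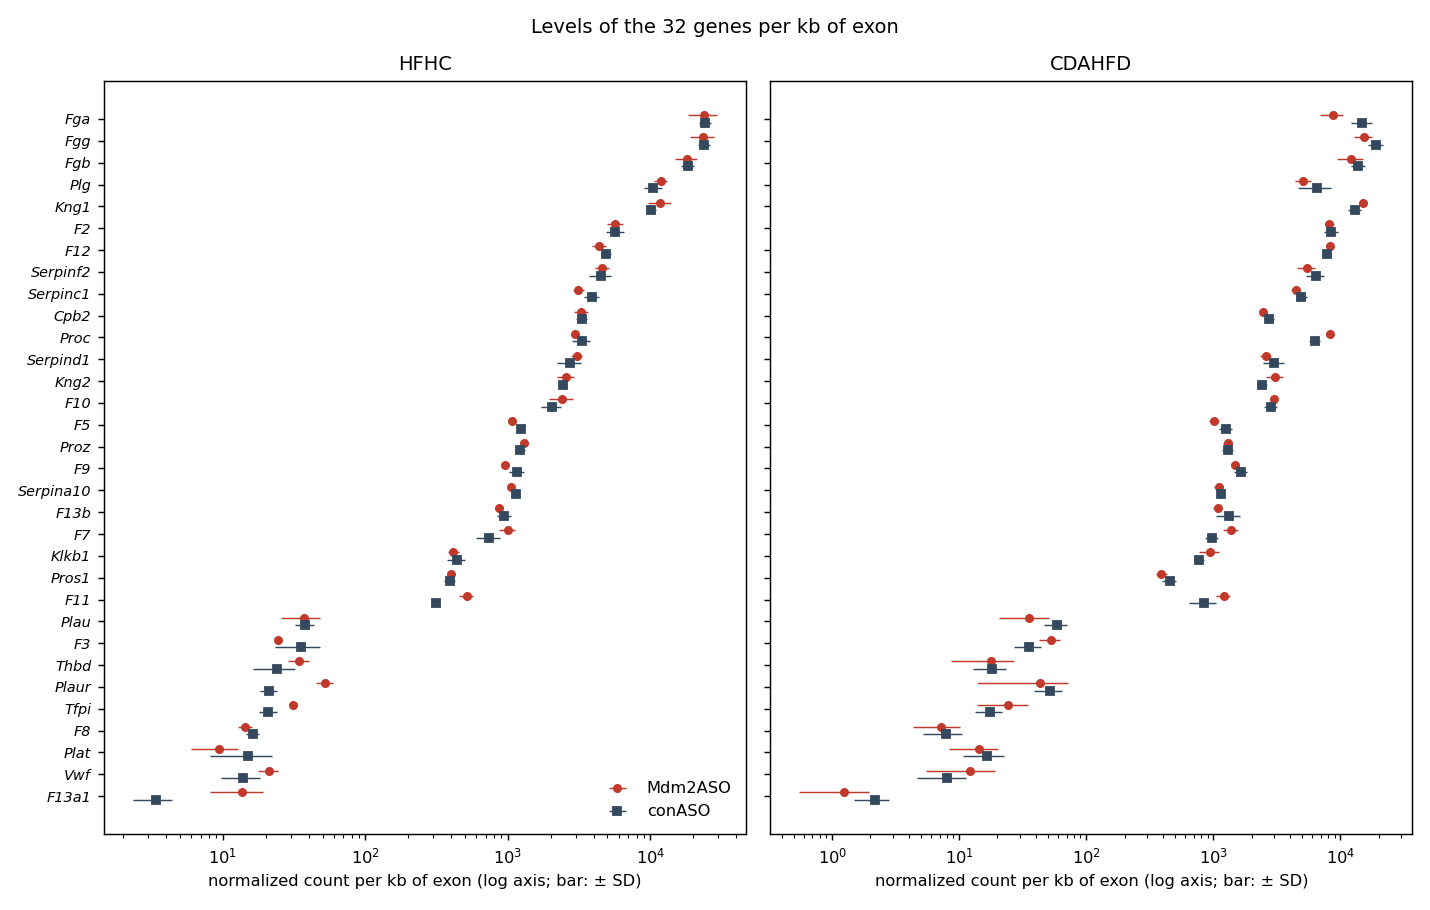
Mean normalized counts per kilobase of exon (log axis) of the 32 members in each group, with SD over libraries, for HFHC and CDAHFD. The 23 members assigned to hepatocytes lie above 300 in every group, with the fibrinogen genes and Kng1 at the top, and the 9 members assigned to other cells lie below 60.

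Other genes of haemostasis, a list of 30 that excludes the members, held 7 risen and 9 fallen genes of 30 tested on HFHC, 53.3% beside 30.6% of all genes, with a median log2 fold change of -0.08. S100a10, which with annexin A2 forms a cell-surface plasminogen receptor, fell, with 1683 ± 373 normalized counts in Mdm2ASO livers (SD, n = 3) and 4359 ± 350 in conASO livers (n = 4, log2 -1.39, limma adjusted p = 7.4e-05). F2rl2, a thrombin receptor, had 27.4 ± 6.81 in Mdm2ASO and 2.08 ± 1.43 in conASO livers (log2 3.55, limma adjusted p = 0.000428). Serpina5, the protein C inhibitor, was listed at 0 in all Mdm2ASO libraries and averaged 7.58 ± 3.55 in conASO libraries.

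On CDAHFD, 1 of 29 tested haemostasis genes rose and 5 fell, 20.7% beside 13% of all genes, with a median of 0.05. Serpine2, the thrombin inhibitor protease nexin 1, rose, with 444 ± 85.4 normalized counts in Mdm2ASO and 236 ± 58.5 in conASO livers (SD, n = 5 each, log2 0.92, limma adjusted p = 0.00421). Anxa2, annexin A2, fell, with 2046 ± 493 in Mdm2ASO and 3447 ± 489 in conASO livers (log2 -0.77, limma adjusted p = 0.00421). Anxa2 fell on HFHC as well (log2 -0.55, limma adjusted p = 0.0132), and S100a10 fell on CDAHFD as well (log2 -0.31, limma adjusted p = 0.0470). Mcfd2, a cargo receptor subunit that carries factors V and VIII out of the endoplasmic reticulum, fell on both diets, by 0.34 on the log2 scale on CDAHFD (limma adjusted p = 0.0213) and by 0.35 on HFHC (0.00650).

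Of 12 transcription factors of hepatocytes, 1 rose and 6 fell on HFHC, with a median log2 fold change of -0.42. These were 58.3% of the list, beside 30.6% of all genes (16.8% higher and 13.8% lower). Foxa1 and Prox1 fell there by 1.03 and 0.48 on the log2 scale (limma adjusted p = 0.000831 and 0.00218), and Stat3, the mediator of interleukin-6 signalling, rose by 0.54 (0.00292). On CDAHFD 3 rose (Onecut1, Cebpb and Nr1h4) and Prox1 fell, 33.3% of the list beside 13% of all genes. Cebpb, which codes for a C/EBP factor of the acute phase, had 16779 ± 1327 normalized counts in Mdm2ASO and 12039 ± 2111 in conASO livers (SD, n = 5 each, log2 0.49, limma adjusted p = 0.0169). Of the 14 hepatocyte markers, 2 rose and 1 fell on CDAHFD (21.4%, beside the same 13% of all genes). Apoc3 and Ttc36 rose (log2 0.58 and 0.30, limma adjusted p = 0.0196 and 0.0263). Hpx, hemopexin, an acute phase protein, fell (log2 -0.68, limma adjusted p = 0.0121). The 14 markers together summed to 2377060 to 2845890 in Mdm2ASO and 2201120 to 3081470 in conASO libraries.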

How the data were processed

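Liver RNA of 18 samples was sequenced from strand-specific mRNA libraries, per the labels' protocols. Per the submitters' processing notes, STAR 2.7.10b aligned the reads to GRCm39, and counts came from featureCounts of Subread 2.0.3; the annotation and the strand setting are not given in the sources used here, so reads of genes that overlap on opposite strands may be shared. The deposited values are TMM-normalized counts, a scaled signal and not raw counts, in 1 table per diet with 0 columns of other series. On CDAHFD whole reads were recovered from the deposited values for edgeR and DESeq2.

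Within each table limma-trend was fitted to log2(value + 0.5) of the genes that reached 1 in at least the number of libraries of the smaller group, and p-values were adjusted by Benjamini-Hochberg over all genes. The fold changes understate those of low genes. The difference between diets used all 4 groups in 1 fit. HFHC Mdm2ASO replicates 6 and 7, identical in all genes while other pairs of a group differed in at least 18001, counted once. The main fits, and quantile normalization, edgeR and DESeq2 on CDAHFD, were run on simulated data. The simulation gave all genes the same setting of spread, which the real data need not have. Its outcome is not reported here, and the other alternatives were not simulated. Recovered reads were not used for HFHC or the difference. Members called on a diet or in the difference were named by rule. The others are given by range, and were also named with log2 fold changes after their values had been seen. Of these, F9, Serpinc1, Plg, Klkb1, Fgb and Fgg were given in more detail. Up to 4 called genes per pathway list were named by p. Some genes that this rule names are not reported here. Hpx, Apoc3, Ttc36 and S100a10 on CDAHFD and Mcfd2, Anxa2, Alb, Apoa1 and Apoa2 on HFHC are given beside these. The members and lists were chosen with earlier results of these data known. Of the list genes, 1 was not matched. Exon lengths came from GENCODE M21 on GRCm38 by gene identifier for all 32 members, and promoters from RefSeq (GRCm38.p6) by symbol for 24 of 32. Depth is given as the sum of normalized counts, and low counts limit F13a1 most. R 4.3.3, limma 3.58.1, edgeR 4.0.16, DESeq2 1.42.0 and Python 3.11.15 were used.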

Additional observations from a re-analysis of the deposited data

Results flagged for a closer look

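Among the 96 groups of 4 or 5 libraries examined, 8 had 1 library whose gap to the nearest other was large against the range of its group, by a rule that chance meets in about 1 in 20 groups. In Mdm2ASO livers on CDAHFD these were F10 in replicate 9, at 7235 normalized counts where the others had 8280 to 8620, Proz in replicate 7, at 6238 against 7328 to 7675, Cpb2 in replicate 7, at 4354 against 3829 to 3976, and Plaur in replicate 10, at 247 against 53.4 to 93.8. In conASO livers on CDAHFD they were Fga in replicate 5, at 30409 against 46299 to 51458, and Plaur in replicate 1, at 75.1 against 139 to 159. In conASO livers on HFHC they were F5 in replicate 2, at 10075 against 8924 to 9031, and Kng1 in the same library, at 36898 against 31012 to 31957.

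The change under Mdm2ASO differed between diets, by the interaction test in limma, for 4 members. As the CDAHFD effect minus the HFHC effect on the log2 scale, the difference was 1.07 for F3, -2.84 for F13a1, 0.55 for Proc and -1.72 for Plaur, with adjusted p-values of 0.0255, 0.00132, 0.00953 and 0.0120.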

How the results depend on the processing

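The alternatives were a pseudocount of 2, no filter or a minimum of 10, quantile normalization, the Kng1 and Kng2 sum, identical columns kept as 2 samples, edgeR and DESeq2 on CDAHFD, and each library left out. edgeR and DESeq2 were not run on HFHC or on the difference. The leave-one-out of the ratios was chosen after seeing the data. No paired analysis was possible because Mdm2ASO samples carry numbers 6 to 10 and conASO samples 1 to 5, so that compared groups share no number. F11, Plaur, F13a1 and Tfpi on HFHC, F7, Fga and Proc on CDAHFD, the differences of F13a1, Proc and Plaur, and Mdm2 on both diets passed in every alternative run. Quantile normalization moved the median log2 fold change of all genes to -0.111 on HFHC, with the members' median at 0.205, and the median difference to 0.102, with the members' median at -0.204. Under it the differences of Fgg, Serpind1 and Serpinf2 also passed (-0.53, -0.53 and -0.48).

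On HFHC the number of members lower was 1 with a minimum of 10, 2 under quantile normalization, 1 with identical columns kept, and 0 to 1 with a library left out. On CDAHFD, DESeq2 called 8 members, 5 of them higher; no filter and edgeR each left 1 lower member. With a library left out 3 to 7 members were called, 1 to 3 of them lower. For the difference, quantile normalization called 9 members, 7 of them lower, and with a library left out 1 to 2 were higher. The cause of these shifts was not tested.

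No result that passed the test in the values as reported changed sign; those that did had not passed. Under quantile normalization the log2 fold change on HFHC was 0.017 for F12, 0.24 for Fga, 0.26 for Fgb, 0.23 for Fgg and 0.069 for Cpb2. On CDAHFD it was -0.0012 for F12 and -0.027 for Proz, and the difference was -0.019 for F12, -0.22 for Kng1, 0.044 for Vwf and 0.011 for Tfpi. With identical columns kept it was 0.040 for Fga, 0.040 for Fgb, 0.028 for Fgg and 0.021 for Plau on HFHC. With a library left out, HFHC values ran from -0.061 to 0.11 for F2, -0.13 to 0.019 for Klkb1, -0.027 to 0.17 for Kng2, -0.23 to 0.086 for Fga, -0.17 to 0.073 for Fgb, -0.19 to 0.088 for Fgg, -0.013 to 0.086 for Pros1, -0.27 to 0.20 for Plau, -0.045 to 0.15 for Serpinf2 and -0.094 to 0.071 for Cpb2. CDAHFD values ran from -0.33 to 0.11 for F8, -0.036 to 0.065 for Proz and -0.32 to 0.11 for Thbd. Differences ran from -0.055 to 0.15 for F7, -0.26 to 0.0012 for F10, -0.16 to 0.017 for F2, -0.15 to 0.29 for F8, -0.10 to 0.16 for Kng1 and -0.37 to 0.22 for Vwf. The log2 differences of the HFHC ratios ran from -0.062 to 0.013 for Fga/Fgb and -0.045 to 0.026 for Fga/Fgg.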
